A study of Mus musculus with 96 samples.

Results

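The levels of 10 transcripts that p53 controls or that decide whether a cell survives were followed in mouse macrophages given lipopolysaccharide (LPS) and one of 10 small molecules. The genes were picked by name, as regulators of p53 or of apoptosis, from the 23481 gene symbols of the count table: Cdkn1a, Btg2, Ccng1, Plk2, Mdm2, Bbc3, Pmaip1, Bcl2l11, Mcl1 and Bcl2l1. They were chosen with earlier results of these data known. Shares and medians of these members beside those of all genes are therefore descriptions and not tests of the set. Of the 10, 9 had enough counts to be tested, and Pmaip1 did not.

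All cells were bone marrow-derived macrophages from wild-type male C57BL/6 mice 8 weeks old, grown in conditioned medium that contains MCSF, the growth factor of this lineage. In each of 10 groups the cells had a compound for 30 min before LPS, a bacterial cell wall component, and were lysed at 4 h of LPS. The compounds are named as labelled: Halofuginone, BrefA, Tunicamycin, Torin, tBHQ, pGE2, Dexa, Caspase-1, ZVAD and Baflo. Another group had the vehicle DMSO with LPS (called DMSO here), and the last, NoStim, had no LPS. Every group held 8 libraries, 4 from each of 2 plates. The sources used here give no doses and no vehicle for NoStim wells, and no compound was used without LPS, so the effect of a compound on resting cells was not measured. The labels do not say that wells came from separate cultures or animals, so p-values measure the spread between wells, which may be technical. Deviations of wells from the mean of their group and plate correlated across the plates for the same treatment and letter (mean r = 0.23 over 1428 genes). The mean for other letters (-0.08) is not a separate baseline, because the 4 deviations of a group and plate cancel out. Wells that share treatment and letter may therefore not be independent, nor may the 8 wells of a group. With such wells summed to 4 per group, 68 of the 74 member calls of all comparisons were kept.

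The transcription factor p53 is held low by Mdm2, a ubiquitin ligase that p53 itself induces, and is known to turn on genes that stop the cell cycle (Cdkn1a, Btg2) or that promote death (Bbc3, Pmaip1). Several of these genes are also known to respond without p53, to stress and inflammatory signals. At the mitochondria, BH3-only proteins such as Bbc3 (PUMA), Pmaip1 (NOXA) and Bcl2l11 (BIM) bind and block anti-apoptotic relatives such as Mcl1 and Bcl2l1 (BCL-XL), and the balance between both kinds sets the threshold for caspase activation. In macrophages LPS is known to raise survival genes of this family.

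Sequences are shown for the genes that set the main patterns below: Btg2 and Plk2, with the highest fold changes, and Cdkn1a, the most strongly counted member. Each is the stretch of 250 bases just upstream of a RefSeq start site (GRCm38.p6), 5′ to 3′ on the strand of the gene. Capitals in Btg2 (chr1:134079156-134079405, minus strand) and Plk2 (chr13:110394794-110395043, plus strand) mark TGACGTCA, the palindromic cyclic AMP response element (CRE). It ends at base -159 from the Btg2 start site and at base -55 from the Plk2 start site. In Cdkn1a (chr17:29090729-29090978, plus strand, the first of 2 start sites) capitals mark matches to the p53 half-site consensus, at bases -73 to -64 and -51 to -42.
Btg2: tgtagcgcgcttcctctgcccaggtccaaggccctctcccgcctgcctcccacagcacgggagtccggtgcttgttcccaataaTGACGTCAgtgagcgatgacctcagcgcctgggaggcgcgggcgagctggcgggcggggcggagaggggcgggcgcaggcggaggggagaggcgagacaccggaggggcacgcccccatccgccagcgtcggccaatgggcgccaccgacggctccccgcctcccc
Plk2: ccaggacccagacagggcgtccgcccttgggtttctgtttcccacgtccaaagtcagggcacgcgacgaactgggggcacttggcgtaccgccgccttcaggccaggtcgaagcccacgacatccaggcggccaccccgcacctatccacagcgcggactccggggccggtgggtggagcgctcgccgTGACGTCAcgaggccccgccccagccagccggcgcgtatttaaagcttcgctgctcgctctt
Cdkn1a: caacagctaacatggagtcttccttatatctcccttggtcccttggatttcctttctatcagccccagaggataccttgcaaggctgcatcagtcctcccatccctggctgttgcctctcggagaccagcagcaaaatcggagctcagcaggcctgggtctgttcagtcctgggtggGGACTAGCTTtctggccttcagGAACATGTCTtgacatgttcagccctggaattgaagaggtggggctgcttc

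Both strands were searched in the 15 RefSeq start sites of the 9 members that the promoter table lists. The CRE letters occurred at 2 of these 15, those of Btg2 and Plk2, and in 1.55% of all 32851 upstream windows of 250 bases. The p53 half-site occurred at 3 of 15 (Cdkn1a, Mdm2 and Ccng1) and in 7.13% of all windows, and 2 or more half-sites, as in Cdkn1a, in 0.259%. A match to the NF-kB consensus occurred at 2 of 15 (one start site each of Bbc3 and Bcl2l1, with 2 overlapping matches in Bbc3) and in 7.25% of all windows. The AP-1 consensus occurred at 0 of 15 and in 6.75% of all windows. In GENCODE M21 (mm10) Mdm2 lies at chr10:117688875-117710758, Ccng1 at chr11:40748552-40755311 and Bcl2l1 at chr2:152780668-152831728, all on the minus strand. Bbc3 lies at chr7:16308393-16318205, Bcl2l11 at chr2:128126038-128162547 and Mcl1 at chr3:95658788-95663176, all on the plus strand. The motif counts are matches of letters within 250 bases and do not show that a factor binds.

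Libraries were shallow, with total counts of 80196 to 379198 and a median of 257984. Halofuginone libraries stood apart: totals were 80196 to 136526 in Halofuginone wells, against 201162 to 323049 in DMSO wells. Rn45s, the ribosomal RNA precursor, took 44.7% ± 3.20 of counts in Halofuginone wells and 19.4% ± 4.64 in DMSO wells (SD, n = 8 each). Values below are CPM, counts per 1000000 of a library size that includes Rn45s and is corrected by TMM, and the median fold change of all 4963 tested genes was -0.20 (log2) for Halofuginone against DMSO. Fewer cells and less RNA per cell cannot be told apart in such bulk libraries, nor can a change in a few cells from one in all. Macrophage markers were detected at 8 of 8, with summed group means of 1728.5 to 3729.7 CPM, including Csf1r and Emr1. Mertk was near 0 at 2.02 CPM. The T cell, B cell, neutrophil, fibroblast and erythroid lists summed to at most 14.0 CPM in any group, with Cd3e, Cd3g, Pax5, Mpo and Elane at 0 in every library. The dendritic cell list summed to 11.6 to 36.9 CPM, most of it Xcr1. Because libraries hold transcript 3′ ends and counts are not per length, levels are compared between groups and not between genes.

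Members differed in both directions between DMSO and NoStim wells. Besides LPS, NoStim wells lacked a stated vehicle and lay in other rows (A to D, against E to H), so LPS, vehicle and row cannot be told apart. Wherever a change with LPS is named below, it means DMSO against NoStim wells. Between DMSO and NoStim wells, Cdkn1a, Bcl2l11, Bcl2l1 and Mdm2 rose and Plk2 fell, so that 5 of 9 tested members passed the threshold (edgeR quasi-likelihood test, adjusted p under 0.05), against 36.1% of all tested genes. The median log2 fold change of the 9 was 0.27, beside -0.04 over all tested genes. Scaling by relative log expression moved the all-gene median of this comparison by -0.15 and the share of higher calls to 38.4%, against 54.1% as reported, and Mdm2 no longer passed.

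Among the compounds, Halofuginone, known as an inhibitor of prolyl-tRNA synthetase, changed 7 of the 9 tested members. Relative to DMSO it raised Btg2, Plk2, Bbc3, Mdm2, Bcl2l11 and Mcl1 and lowered Cdkn1a, against 40.3% called among all tested genes. The median of the 9 was 1.01 (log2), beside -0.20 over all tested genes. BrefA raised Bbc3, Plk2 and Mdm2 and lowered Bcl2l11 (4 of 9, against 17.3%), with a median of 0.03. Torin raised Plk2, Mdm2, Mcl1 and Bcl2l11 and lowered Cdkn1a (5 of 9, against 16.7%), with a median of 0.40. tBHQ raised Plk2, Bbc3 and Mdm2 and lowered Cdkn1a and Bcl2l11 (5 of 9, against 36.4%), with a median of 0.15. For tBHQ, scaling by relative log expression moved the all-gene median by 0.14 and the share of higher calls to 61.9%, against 47.5% as reported, and 5 of 9 members still passed.

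pGE2 lowered Cdkn1a, Bcl2l1 and Bcl2l11 and raised Btg2 and Mcl1 (5 of 9, against 11.2% of all tested genes). Dexa lowered Cdkn1a and Bcl2l11 (2 of 9, against 3.57%), and 3 passed without the H wells, with Plk2 higher by 1.22 (adjusted p = 0.00792, against 0.71 and adjusted p = 0.122 with them). Cdkn1a was thus lower than in DMSO wells with 5 of the 10 compounds, and these comparisons share the same 8 DMSO wells.

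The other compounds gave no member past the threshold. With Tunicamycin 0 of 9 members passed in edgeR, against 4.37% of all tested genes. An unadjusted p under 0.05 was found for 4 members, against 909 of all 4963 tested genes. DESeq2 called 296 genes in all, of which 1 was a member (Mcl1, adjusted p = 0.045). In edgeR 1 passed without the E wells (Mcl1, 0.46) and 1 without the F wells (Mdm2, 0.67). With Caspase-1 0 of 9 passed, against 2.9%. An unadjusted p under 0.05 was found for 3 members, against 939 of all tested genes. DESeq2 called 274 genes in all, of which 1 was a member (Bcl2l11, adjusted p = 0.037). Of all genes called for Caspase-1, 47.9% were higher as reported and 59.3% under scaling by relative log expression. With Baflo 0 of 9 passed, against 0% of all tested genes, of which 373 had an unadjusted p under 0.05 in edgeR and 0 were called by DESeq2. With ZVAD 0 of 9 passed, again against 0% of all tested genes, of which 176 had an unadjusted p under 0.05 and 0 were called by DESeq2. Among the 9 members 2 for Baflo and 1 for ZVAD had an unadjusted p under 0.05. Their log2 fold changes lay between -0.59 and 0.55 for Baflo and between -0.51 and 0.59 for ZVAD.

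**Figure D1:**
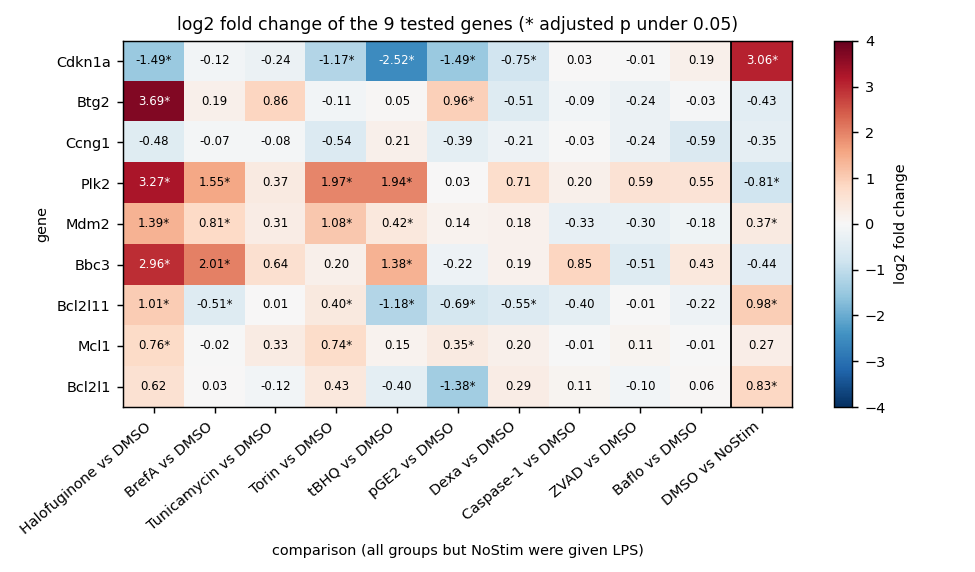
log2 fold changes of the 9 tested genes (rows) in each compound group against DMSO, and in DMSO against NoStim (last column), with an asterisk where the adjusted p was under 0.05. Halofuginone has 7 marked cells, among them Btg2 at 3.69, Plk2 at 3.27 and Bbc3 at 2.96, while the Cdkn1a row is blue for Halofuginone, Torin, tBHQ, pGE2 and Dexa.

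Cdkn1a encodes p21, an inhibitor of cyclin-dependent kinases. Its level in DMSO wells was 5411 CPM at the lowest, 5983 at the median and 6533 at the highest, against 571, 709.7 and 849.6 CPM in NoStim wells. Every DMSO well was above every NoStim well. The fold change of Cdkn1a in DMSO against NoStim wells was 3.06 ± 0.12 on the log2 scale (fitted SE, adjusted p = 4.74e-52). Its mean was 6047 ± 401 CPM in DMSO wells and 722 ± 84.1 CPM in NoStim wells (SD, n = 8 each). The deposited table does not say whether counting used strand, and a gene on the opposite strand, AC167363.2, overlaps Cdkn1a in GENCODE M21.

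tBHQ gave the lowest Cdkn1a level of the LPS groups. The lowest, median and highest tBHQ wells held 770.1, 1013 and 1379.9 CPM, all below the lowest DMSO well at 5411 CPM. The fold change was -2.52 ± 0.12 (log2, adjusted p = 1.06e-43), yet tBHQ wells remained 0.54 ± 0.11 above NoStim wells (adjusted p = 0.000184), with some overlap between these groups. On plate 2 alone this difference from NoStim was 0.42 and missed the threshold (adjusted p = 0.12).

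Cdkn1a was also lower with pGE2, Halofuginone, Torin and Dexa. pGE2 wells ranged from 1831 to 2457 CPM with a median of 2157, and the fold change against DMSO was -1.49 ± 0.11 (adjusted p = 2.26e-24). Halofuginone wells ranged from 1401 to 3463 CPM with a median of 1979.7, and the fold change was -1.49 ± 0.11 (adjusted p = 1.62e-23). Every pGE2 well and every Halofuginone well lay below every DMSO well. Torin wells ranged from 2508 to 2995 CPM, again below every DMSO well, with a fold change of -1.17 ± 0.11 (adjusted p = 1.83e-17). Dexa wells, at 2682 to 4124 CPM, also lay below every DMSO well (-0.75 ± 0.11, adjusted p = 3.2e-08).

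The remaining LPS groups overlapped DMSO in Cdkn1a. Their means were 6891 ± 697 CPM with Baflo, 6138 ± 732 with Caspase-1, 5996 ± 615 with ZVAD, 5567 ± 928 with BrefA and 5095 ± 1358 with Tunicamycin (SD, n = 8 each). In the order of the 12 group means, the only neighbours whose wells did not overlap were pGE2 and the next lower group, tBHQ.

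Btg2, an anti-proliferative protein that promotes the shortening of mRNA tails, rose most of all members with Halofuginone. Halofuginone wells held 234 CPM at the lowest, 281 at the median and 650.5 at the highest, against 13.0, 23.9 and 58.0 CPM in DMSO wells, so no wells overlapped. The fold change was 3.69 ± 0.31 (log2, adjusted p = 5.54e-19), from 16 to 40 counts per Halofuginone library and 3 to 15 counts per DMSO library. It was 4.36 on plate 1 alone and 2.91 on plate 2 alone, and it passed on each plate alone. With Rn45s and Lars2 left out of the counts, each of the 7 Halofuginone calls against DMSO was kept. With no count filter, the Halofuginone calls lost against BrefA and Tunicamycin were all lower by a similar size. Against BrefA, Mdm2 was then 0.28, against 0.58 as reported, and Bbc3 0.64, against 0.95. Against Tunicamycin, Mcl1 was 0.10, against 0.43, and Bcl2l1 0.43, against 0.74. Halofuginone values against DMSO and NoStim may be lower in that fit too, and their sizes are not given here. Depth also differed in Halofuginone wells, and its part in the Btg2 result was not tested.

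In the other groups Btg2 stayed at or below 66.3 CPM in every well but one. That well, Tunicamycin plate 2 F, held 240.3 CPM (50 counts), with the next highest Tunicamycin well at 43.6 CPM. The Tunicamycin fold change against DMSO was 0.86 ± 0.35 (adjusted p = 0.141) with it and 0.03 without it. pGE2 wells held 33.2 to 66.3 CPM with a median of 58.0, against the DMSO range above, and the fold change was 0.96 ± 0.34 (adjusted p = 0.0455). The pGE2 call was lost on plate 2 alone, where the fold change was 0.51, and when the E, G or H wells were left out (adjusted p = 0.099 to 0.208). In DESeq2 it just missed the threshold (0.996, adjusted p = 0.05001).

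Plk2, a kinase induced by p53 and by other signals, rose with 4 compounds and was lower in DMSO than in NoStim wells. DMSO wells held 16.0, 27.6 and 71.2 CPM (lowest, median, highest), against 38.1, 56.8 and 86.5 CPM in NoStim wells, and the groups overlapped. The LPS fold change was -0.81 ± 0.25 (log2, adjusted p = 0.00607). It was -0.37 on plate 1 alone and -1.26 on plate 2 alone, and it missed the threshold on plate 1 alone (adjusted p = 0.414) and without the E wells (-0.61, adjusted p = 0.0631).

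With Halofuginone Plk2 held 132, 345 and 639 CPM, above every DMSO well, and the fold change was 3.27 ± 0.24 (adjusted p = 4.61e-25). Torin wells held 84.6, 149 and 176 CPM (1.97 ± 0.24, adjusted p = 5.4e-12), and tBHQ wells 89.2, 137 and 181 CPM (1.94 ± 0.23, adjusted p = 7.72e-13). BrefA wells held 85.8, 102 and 128 CPM (1.55 ± 0.24, adjusted p = 3.46e-08). In each of these 4 groups the lowest well was above the highest DMSO well. By mean level Halofuginone came first, then Torin, tBHQ and BrefA, and the wells of each neighbouring pair in this order overlapped.

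Mdm2, the ubiquitin ligase that limits p53, also rose with Halofuginone, Torin, BrefA and tBHQ. Halofuginone wells held 333, 516 and 719.6 CPM (lowest, median, highest), against 121, 168 and 308 CPM in DMSO wells. The fold change was 1.39 ± 0.16 (log2, adjusted p = 5.41e-13) and no wells overlapped. Torin wells held 349.7, 401 and 491 CPM, also above every DMSO well (1.08 ± 0.15, adjusted p = 1.28e-09). BrefA wells held 258, 352 and 398 CPM and overlapped DMSO wells (0.81 ± 0.15, adjusted p = 3.77e-06).

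Smaller differences in Mdm2 depended on the wells used. tBHQ against DMSO gave 0.42 ± 0.15 (adjusted p = 0.021), but neither plate alone passed, and the call was lost without the G wells (0.27) or the H wells (0.32) and with same-named wells of the 2 plates summed (0.34, adjusted p = 0.104). LPS gave 0.37 ± 0.16 (adjusted p = 0.0481), from a mean of 194 ± 68.7 CPM in DMSO wells and 149.8 ± 32.7 CPM in NoStim wells (SD, n = 8 each). The LPS value was 0.75 on plate 1 and 0.01 on plate 2, and it missed the threshold without the A, B, C, D, E or F wells in turn (0.08 without F, 0.32 to 0.40 without the others). In DESeq2 it was 0.22 and missed the threshold (adjusted p = 0.25).

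Ccng1 encodes cyclin G1, a p53 target that is known to act back on Mdm2. It passed the fewest tests: edgeR and DESeq2 called it in 0 of the 10 compound comparisons with DMSO, 2 of which had an unadjusted p under 0.05 in edgeR (Torin and Baflo), and the F test for any difference among the 11 LPS groups gave an adjusted p of 0.056. The other 8 tested members passed that test, against 75.4% of all tested genes. Group means ran from 39.1 ± 13.7 CPM with Baflo to 68.9 ± 16.5 with tBHQ among the LPS groups, and were 75.7 ± 22.8 in NoStim (SD, n = 8 each), and every pair of neighbours in that order overlapped. Halofuginone wells had the largest SD, from 0 to 132 CPM on 0 to 9 counts, with 2 wells at 0. Without the E wells Ccng1 passed as lower with Halofuginone (-0.99, adjusted p = 0.0448) and with Torin (-0.85, adjusted p = 0.0374). Against NoStim, DESeq2 called Ccng1 as lower in DMSO wells (-0.51, adjusted p = 0.0497), where edgeR gave -0.35 (adjusted p = 0.228). Without Tunicamycin plate 2 F, Ccng1 passed the F test too, making 9.

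**Figure D2:**
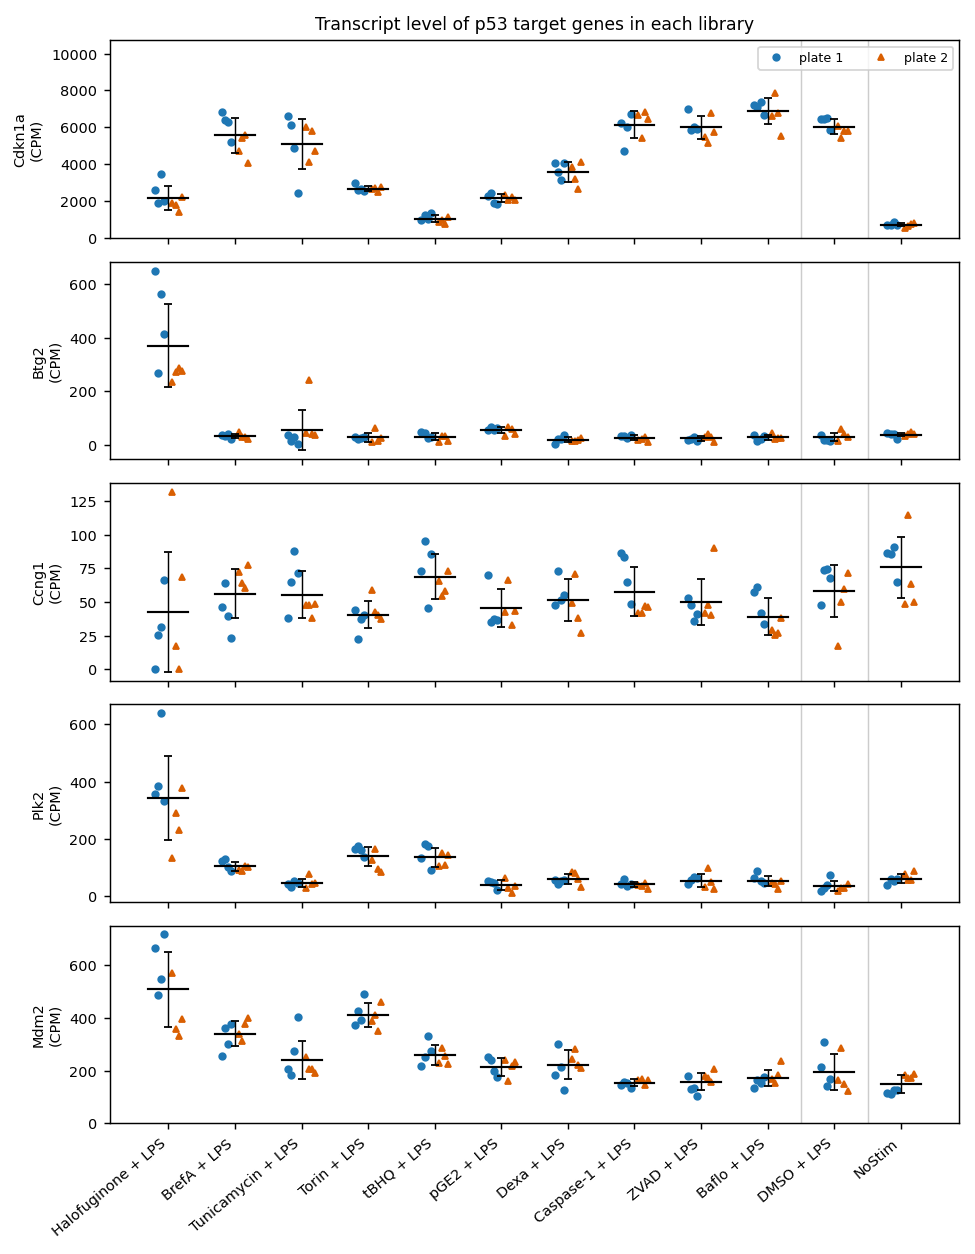
CPM of the 5 p53 target genes in each library, by group, with compound groups left, then DMSO, then NoStim. Circles are plate 1 and triangles plate 2, the bar is the mean and the whisker the SD of 8 wells. Halofuginone wells are set above all DMSO wells for Btg2, Plk2 and Mdm2, while mean Cdkn1a is 2171 CPM with Halofuginone and 1055 CPM with tBHQ, against 6047 CPM in DMSO wells.

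Of the BH3-only genes, Bbc3 had low counts and a large relative change. Halofuginone wells held 51.1 CPM at the lowest, 94.7 at the median and 172 at the highest, against 7.74, 11.8 and 17.7 CPM in DMSO wells. No wells overlapped, and the fold change was 2.96 ± 0.36 (log2, adjusted p = 4.37e-12). The values rest on 3 to 10 counts per Halofuginone library (55 in all) and 2 to 5 per DMSO library (26 in all). BrefA wells held 29.0, 52.9 and 71.8 CPM, again above every DMSO well (2.01 ± 0.32, adjusted p = 1.67e-07), on 8 to 19 counts each.

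tBHQ wells held 17.1, 33.8 and 43.6 CPM of Bbc3, and all but the lowest lay above the DMSO range (1.38 ± 0.35, adjusted p = 0.000637). On plate 1 alone the tBHQ fold change was 1.16 and missed the threshold (adjusted p = 0.0631). Tunicamycin, known as an inhibitor of protein N-glycosylation, gave 11.5 to 33.6 CPM and a fold change of 0.64 ± 0.38 (adjusted p = 0.371). The direct difference between Tunicamycin and BrefA was -1.37 ± 0.30 (adjusted p = 0.000175), a call lost on plate 2 alone (-1.23, adjusted p = 0.087).

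Pmaip1 fell below the count filter and was not tested with the other members. It had 179 counts over the 96 libraries and a count in 71 of them. Halofuginone wells held 0 to 53.3 CPM (median 32.6, 16 counts in all), against 0 to 12.4 CPM in DMSO wells (median 3.86, 9 counts in all) and 0 to 19.8 CPM in NoStim wells (26 counts in all). Halofuginone had the highest group mean, at 28.1 ± 19.4 CPM, but 2 of its 8 wells were at 0. At 0 to 8 counts per library little can be resolved at this depth. Fitted with no filter, Pmaip1 was higher with Halofuginone than with DMSO (2.31 ± 0.64 on the log2 scale, adjusted p = 0.00347), Tunicamycin (1.92 ± 0.61, adjusted p = 0.0138) and BrefA (1.66 ± 0.59, adjusted p = 0.0396). In that fit the Halofuginone calls of other members lost against BrefA and Tunicamycin were all lower than as reported, such as Mcl1 against Tunicamycin (0.10, against 0.43).

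Bcl2l11, which binds all main anti-apoptotic relatives, rose with LPS and was then moved both ways by compounds. DMSO wells held 260.2, 347 and 444 CPM (lowest, median, highest), against 118, 177 and 248 CPM in NoStim wells, without overlap, and the LPS fold change was 0.98 ± 0.13 (log2, adjusted p = 2.56e-10). Halofuginone wells held 498, 659 and 1123 CPM, above every DMSO well (1.01 ± 0.14, adjusted p = 2.79e-10). tBHQ wells held 113, 147 and 233 CPM, below every DMSO well (-1.18 ± 0.14, adjusted p = 5.45e-13).

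Other compounds shifted Bcl2l11 within ranges that overlapped DMSO. pGE2 gave 217 ± 36.4 CPM, against 352 ± 62.8 CPM in DMSO wells (SD, n = 8 each), a fold change of -0.69 ± 0.13 (adjusted p = 2.1e-05). Dexa gave -0.55 ± 0.13 (adjusted p = 0.003), which was -0.36 and missed the threshold on plate 2 alone (adjusted p = 0.688) and was -0.43 without the F wells (adjusted p = 0.136). BrefA gave -0.51 ± 0.13 (adjusted p = 0.00202), but neither plate alone passed (-0.52 and -0.49), nor did the fit without the H wells (-0.35, adjusted p = 0.131). Torin gave 0.40 ± 0.13 (adjusted p = 0.0176), but missed the threshold on each plate alone (0.28 and 0.49) and without the E wells (0.32, adjusted p = 0.153). Bcl2l11 was the member nearest to the threshold with Caspase-1, at -0.40 ± 0.13 (adjusted p = 0.0602).

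Mcl1, a short-lived anti-apoptotic protein, was raised by Torin and Halofuginone. Torin wells held 439.7, 484 and 544 CPM (lowest, median, highest), all above the highest DMSO well, against 243, 311 and 357 CPM in DMSO wells (0.74 ± 0.12 on the log2 scale, adjusted p = 7.82e-07). Halofuginone wells held 278, 477 and 860.0 CPM and overlapped DMSO wells (0.76 ± 0.14, adjusted p = 1.73e-06). pGE2 wells held 281, 379 and 465 CPM, and their difference from DMSO, 0.35 ± 0.12 (adjusted p = 0.0461), did not pass without the E, F, G or H wells in turn (0.29 to 0.41) or on either plate alone. With tBHQ Mcl1 missed the threshold in edgeR (0.15, adjusted p = 0.363) and passed as higher in DESeq2 (0.30, adjusted p = 0.0333). The LPS difference was 0.27 ± 0.13 and missed the threshold (adjusted p = 0.0858; it passed without the B wells, at 0.37, adjusted p = 0.0251), with 295 ± 42.3 CPM in DMSO wells and 246 ± 49.5 CPM in NoStim wells (SD, n = 8 each).

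Bcl2l1, the other anti-apoptotic member, was lowered by pGE2. pGE2 wells held 0, 18.5 and 32.6 CPM, all below the lowest DMSO well, against 37.1, 43.0 and 69.2 CPM in DMSO wells, and the fold change was -1.38 ± 0.29 (log2, adjusted p = 0.000106). The pGE2 level lay near that of NoStim wells, which held 13.0, 25.7 and 46.5 CPM. Bcl2l1 was higher in DMSO than in NoStim wells by 0.83 ± 0.27 (adjusted p = 0.0082), with overlapping wells. This LPS call was lost on plate 1 alone (0.53, adjusted p = 0.287) and without the D wells (0.58, adjusted p = 0.0908).

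Halofuginone wells split by plate in Bcl2l1. The 4 wells of plate 1 averaged 115 CPM and the 4 of plate 2 averaged 27.4 CPM, on 1 to 10 counts per library, while DMSO wells averaged 47.1 CPM on plate 1 and 47.9 CPM on plate 2. Against DMSO the value was 1.23 on plate 1 alone (adjusted p = 0.0122) and -0.70 on plate 2 alone, and over both plates 0.62 ± 0.31 missed the threshold (adjusted p = 0.0937). The 2 plates thus disagree in sign.

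**Figure D3:**
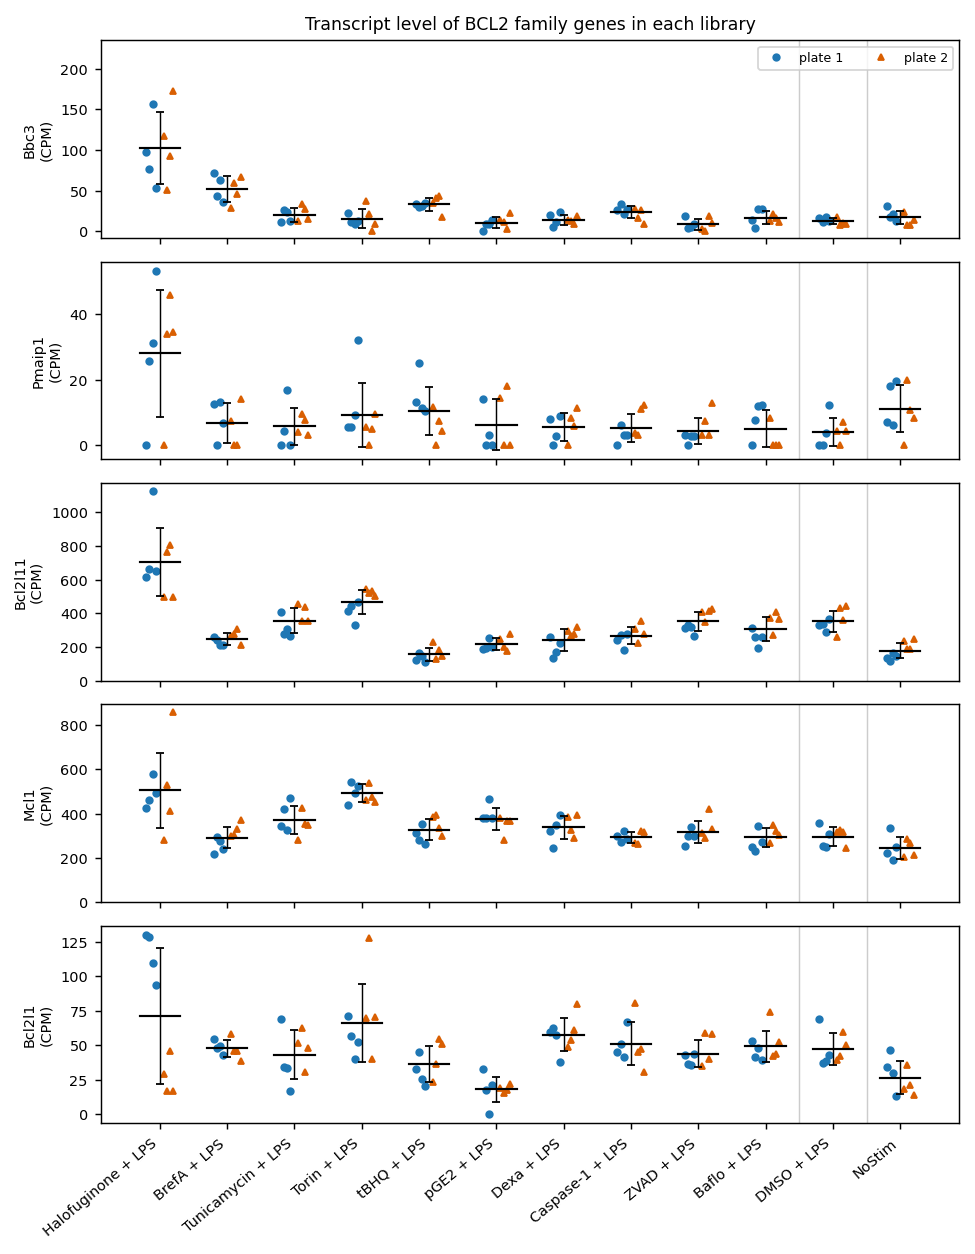
CPM of the 3 BH3-only genes (Bbc3, Pmaip1, Bcl2l11) and the 2 anti-apoptotic genes (Mcl1, Bcl2l1) in each library, with compound groups left, then DMSO, then NoStim. Circles are plate 1 and triangles plate 2, with the mean and SD of 8 wells. Bbc3 is highest with Halofuginone (102 CPM) and BrefA (51.9 CPM), against 12.6 CPM in DMSO wells, and Bcl2l1 with Halofuginone separates by plate.

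Halofuginone, BrefA and tBHQ were also set against NoStim, that is, against the level without LPS. Halofuginone against NoStim changed 9 of 9 tested members, 8 higher and Ccng1 lower, against 54.2% of all tested genes. Cdkn1a was 1.58 ± 0.12 above NoStim (log2, adjusted p = 6.27e-25), although below DMSO, and Bcl2l11 was 2.00 ± 0.14 above (adjusted p = 2.24e-26). The Ccng1 call (-0.83 ± 0.34, adjusted p = 0.0305) was lost on plate 2 alone and without the B, F or G wells (-0.50 to -0.66). BrefA against NoStim gave 6 of 9 higher and 0 lower, against 37.3% of all tested genes called in either direction. Cdkn1a was at 2.94 ± 0.12 (adjusted p = 1.69e-50) and Bbc3 at 1.56 ± 0.30 (adjusted p = 4.1e-06). Of the 6, Plk2 (0.47) and Bcl2l11 (0.29) missed the threshold on plate 2 alone, and Bcl2l1 on plate 1 alone (0.61) and without the D wells (0.63). Ccng1 passed as lower than NoStim with BrefA under relative log expression scaling (-0.54, adjusted p = 0.0453), in DESeq2 (-0.55, adjusted p = 0.0349) and on plate 1 alone (-1.02, adjusted p = 0.00655), and Mcl1 passed as higher without the B wells (0.37, adjusted p = 0.0251). Under scaling by relative log expression the all-gene medians of these comparisons moved by -0.10 for Halofuginone and -0.12 for BrefA, and for BrefA the calls were 831 higher and 1179 lower, against 981 higher and 870 lower as reported. Halofuginone against NoStim gave Bcl2l1 1.46 ± 0.33 (adjusted p = 8.69e-05), but 0.45 on plate 2 alone, where it did not pass.

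tBHQ against NoStim gave 5 of 9 higher and 0 lower, against 8.3% of all tested genes called in either direction (236 higher and 176 lower). Plk2 was 1.13 ± 0.20 above NoStim (log2, adjusted p = 9.4e-06) and Mdm2 0.79 ± 0.15 above (adjusted p = 3.23e-05), with no overlap of wells for either. Bcl2l11 stood at 156 ± 38.3 CPM in tBHQ wells and 179 ± 46.2 CPM in NoStim wells (SD, n = 8 each), a difference of -0.19 ± 0.14 that missed the threshold (adjusted p = 0.504). The Bbc3 and Mcl1 calls of this comparison (0.93, adjusted p = 0.0464, and 0.42, adjusted p = 0.0163) were lost on each plate alone, and also without the B to G wells in turn for Bbc3 and without the A wells or the C to G wells in turn for Mcl1. On plate 2 alone 0 of the 5 passed.

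Compounds were also compared directly. Halofuginone against BrefA gave 7 of 9 members past the threshold, against 40.2% of all tested genes. Btg2 was the widest difference (3.50 ± 0.30 on the log2 scale, adjusted p = 3.5e-18), Bcl2l11 differed by 1.52 ± 0.14 (adjusted p = 3.38e-18), and Cdkn1a was lower by -1.36 ± 0.11 (adjusted p = 7.24e-21). Bbc3 differed by 0.95 ± 0.29 (adjusted p = 0.00605), a call lost on each plate alone (adjusted p = 0.203 and 0.0666) and with no count filter (0.64, adjusted p = 0.165). Mdm2 differed by 0.58 ± 0.15 (adjusted p = 0.00136), but by 0.21 on plate 2 alone (adjusted p = 0.468) 0.41 without the E wells (adjusted p = 0.087) and 0.28 with no count filter (adjusted p = 0.271).

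Halofuginone against Tunicamycin gave 8 of 9, against 45% of all tested genes. Plk2 differed by 2.90 ± 0.23 (log2, adjusted p = 1.54e-22) and Btg2 by 2.83 ± 0.29 (adjusted p = 6.55e-15), which was 3.69 without Tunicamycin plate 2 F. Bcl2l1 differed by 0.74 ± 0.31 (adjusted p = 0.0418), but by -0.68 on plate 2 alone, where it did not pass, and it was lost without the F, G or H wells (0.64 to 0.77) and with no count filter (0.43). The Mcl1 difference (0.43, adjusted p = 0.00599) was 0.23 on plate 1 alone (adjusted p = 0.377), 0.30 without the H wells (adjusted p = 0.123) and 0.10 with no count filter (adjusted p = 0.766).

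Tunicamycin against BrefA gave 5 of 9, against 16.9%: Bbc3, Plk2 and Mdm2 were lower and Bcl2l11 and Mcl1 higher. Plk2 was lower by -1.18 ± 0.23 (log2, adjusted p = 1.89e-05), with every Tunicamycin well below every BrefA well. The Mcl1 call (0.35, adjusted p = 0.0346) was lost without Tunicamycin plate 2 F (0.30, adjusted p = 0.0899), which made 4 of 9, and without the E, F, G or H wells in turn (0.28 to 0.40). ZVAD against Caspase-1 gave 1 of 9, against 1.17%: Bbc3 was lower by -1.36 ± 0.37 (adjusted p = 0.0375), with 8.43 ± 6.94 CPM in ZVAD wells and 23.1 ± 7.46 CPM in Caspase-1 wells (SD, n = 8 each). This call was lost on each plate alone and without the E, F, G or H wells in turn (adjusted p = 0.0879 to 0.289). Bcl2l11 passed instead, as higher with ZVAD, in DESeq2 (0.37, adjusted p = 0.0398) and in the fit of these 2 groups alone (0.42, adjusted p = 0.0225), where Bbc3 had no adjusted p.

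Both plates carried every compound and both controls, so each fold change could be taken from each plate alone. Of the 99 fold changes of the 9 tested members (10 compounds against DMSO, and LPS), 33 had passed the threshold, and each of these 33 kept its sign from plate to plate. Of the 66 that had not passed, 39 kept theirs. The plates are parts of the same data, so this describes how the values spread and is not a separate test.

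**Figure D4:**
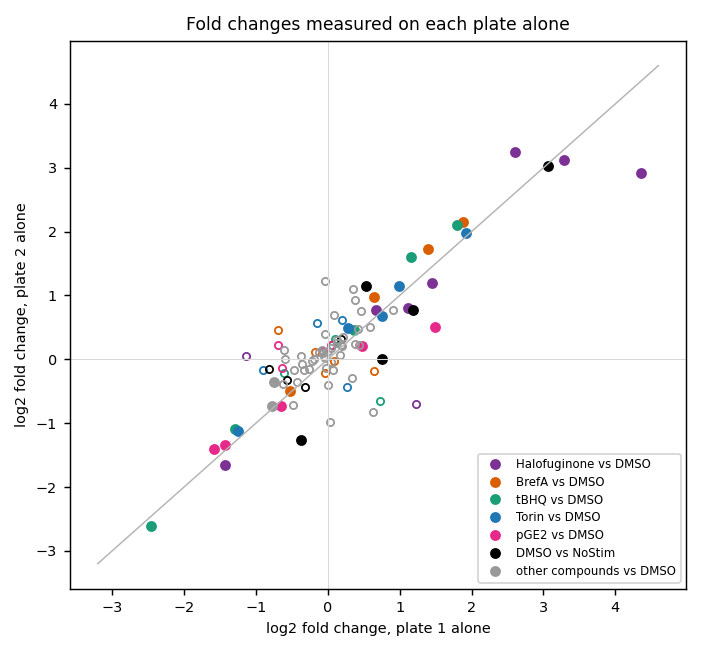
log2 fold change on plate 1 alone (horizontal) and plate 2 alone (vertical) for the 9 tested genes, by comparison. Filled points passed the threshold over both plates, open points did not, and the line marks equal values. The 33 filled points share a sign on both plates, and the open Halofuginone point at 1.23 and -0.70 is Bcl2l1.

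In the order of the 12 group means, neighbouring groups overlapped for every member except at 2 places, Halofuginone and pGE2 for Btg2, and pGE2 and tBHQ for Cdkn1a. How often neighbours are apart was not counted over all tested genes. For Btg2, Halofuginone still overlapped Tunicamycin, whose plate 2 F well held 240.3 CPM, against 234 CPM in the lowest Halofuginone well. For Bcl2l11 the order ran from Halofuginone (703 CPM) and Torin (469 CPM) down to tBHQ (156 CPM), and for Mcl1 from Halofuginone (504 CPM) and Torin (491 CPM) down to NoStim (246 CPM). For Plk2 DMSO wells came last, at 33.3 ± 17.8 CPM, and for Bcl2l1 pGE2 wells did, at 18.2 ± 9.01 CPM (SD, n = 8 each). Across the group means of log2 CPM, the members did not move as one block. Plk2 and Mdm2 had Pearson's r = 0.83, Plk2 and Bbc3 0.73, and Mdm2 and Mcl1 0.79. Cdkn1a had r = -0.40 with Plk2, -0.17 with Bbc3 and -0.16 with Mdm2. Ccng1 had r = -0.82 with Bcl2l11 and -0.77 with Btg2. These are descriptions over 12 groups that share scaling, and Halofuginone, with the shallowest libraries, weighs in each of them.

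The genes whose group means were most like a member's, among 4753 genes compared, were taken as the nearest 2 by Pearson's r over the 12 groups. Their r is high in part because they were selected as the highest, and shared control was not tested. For Btg2 the Halofuginone mean (370 CPM, next pGE2 at 55.1 CPM) weighs heavily. For Cdkn1a they were Ch25h (0.983) and Ccl3 (0.968), for Btg2 Nr4a1 (0.937) and Ep300 (0.933), and for Plk2 Osbpl8 (0.929) and Chd2 (0.922). For Mdm2 they were Irak2 (0.925) and Ifrd1 (0.915), and for Ccng1 one of them was Pnpla7 (0.964). For Bcl2l11 they were Junb (0.948) and Erbb2ip (0.947), and for Bbc3 Hnrnpk (0.872) and Chtop (0.870). For Mcl1 they were Aqr (0.887) and Mxd1 (0.869), and for Bcl2l1 Cited2 (0.917) and Tlr7 (0.881).

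Other genes of the p53 pathway were counted from a list of 34, of which 31 were in the table and 13 tested. Trp53, which encodes p53 itself, was not tested: it had 329 counts in all and a count in 88 of 96 libraries. Halofuginone raised 4 of the 13 and lowered 0, against 40.3% of all tested genes called in either direction (760 higher and 1240 lower). Its list median was 0.49 (log2) beside -0.20. Torin raised 4 as well and lowered 0, against 16.7% (477 higher and 353 lower), with a median of 0.44 beside -0.02. tBHQ raised 4 and lowered 2 (6 of 13, against 36.4%), and LPS raised 3 and lowered 3 (6 of 13, against 36.1%). DESeq2 called 7 of the 13 for tBHQ and 6 for LPS. BrefA changed 0 of the 13 in edgeR, against 17.3% of all tested genes, and 0 in DESeq2. In edgeR 2 of the 13 had an unadjusted p under 0.05 with BrefA, against 1332 of all 4963 tested genes. The BrefA list median was -0.01 beside 0.01.

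The growth arrest genes Gadd45a, Gadd45b and Gadd45g, which encode stress-induced regulators of kinases, rose with both Torin and Halofuginone. Gadd45a rose by 2.53 ± 0.34 with Torin (log2, adjusted p = 8.19e-10) and by 1.97 ± 0.45 with Halofuginone (adjusted p = 0.000196), from means of 86.5 CPM in Torin wells and 59.4 CPM in Halofuginone wells, against 14.9 CPM in DMSO wells. Gadd45g rose by 2.19 ± 0.32 with Torin, 2.16 ± 0.40 with Halofuginone and 1.89 ± 0.32 with pGE2 (adjusted p = 1.88e-08, 3.69e-06 and 9.83e-07). Gadd45b rose by 2.67 ± 0.14 with LPS (adjusted p = 4.81e-38), and by a further 1.05 ± 0.12 with Torin and 1.08 ± 0.13 with Halofuginone (adjusted p = 6.18e-13 and 6.56e-13). Triap1, an inhibitor of apoptosis, fell with LPS (-1.85 ± 0.31, adjusted p = 2.32e-07) and rose with tBHQ against DMSO (1.56 ± 0.33, adjusted p = 3.03e-05). Fas, the death receptor, rose with LPS (2.27 ± 0.46, adjusted p = 2.06e-05) and was lower with tBHQ (-1.63 ± 0.44, adjusted p = 0.00137).

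Of 20 other BCL2 family genes in the table only 5 were tested: Bax, Bnip3l, Bcl2a1a, Bcl2a1b and Bcl2a1d. The 3 Bcl2a1 genes encode the anti-apoptotic protein A1 and are near-identical copies, so how reads were split between them is uncertain and they are not 3 independent values. All 3 rose with LPS, by 3.30 to 3.55 (log2), and Bcl2a1b averaged 379 CPM in DMSO wells and 37.7 CPM in NoStim wells. All 3 were lower with tBHQ (-2.71 to -2.79), with Halofuginone (-1.11 to -1.57) and with pGE2 (-0.79 to -0.94). They were higher with Caspase-1 (0.48 to 0.55) and Tunicamycin (0.45 to 0.54), groups in which 0 of 9 members passed, and each of these values had an adjusted p under 0.05. In edgeR Halofuginone lowered all 5, the 3 copies included, against 40.3% of all tested genes called (760 higher and 1240 lower), with Bax, a pore-forming killer, at -0.90 ± 0.33 (adjusted p = 0.0212). DESeq2 called 4 of the 5 for Halofuginone, and the gene it did not call is not named here. Bnip3l rose with Torin (0.58 ± 0.19, adjusted p = 0.0171).

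From a list of 29 caspase and death receptor genes 14 were tested. In edgeR LPS raised 6 and lowered 0, against 36.1% of all tested genes called in either direction (968 higher and 822 lower). The list median was 0.52 (log2) beside -0.04. The inflammatory caspases Casp4 and Casp1 rose by 2.42 ± 0.19 (adjusted p = 5.54e-23) and 1.13 ± 0.17 (adjusted p = 8.21e-09), and Cflar, which restrains caspase-8, by 1.23 ± 0.15 (adjusted p = 2.83e-11). tBHQ raised 1 and lowered 6 (7 of 14, against 36.4%), with a list median of -0.60 beside 0.04, and Casp4 fell by 1.78 ± 0.18 (adjusted p = 9.83e-16). Halofuginone raised 2 and lowered 5 of the 14 (7 of 14, against 40.3%), with Casp8 at 1.09 ± 0.34 (adjusted p = 0.00591), Birc3, an inhibitor of apoptosis, at 1.05 ± 0.36 (adjusted p = 0.0159), and the adaptor Fadd at -1.08 ± 0.43 (adjusted p = 0.0361). With pGE2, Apaf1, the scaffold of the apoptosome, rose by 1.08 ± 0.26 (adjusted p = 0.000992). The receptor gene Tnfrsf1a was lower with Torin (-1.17 ± 0.23, adjusted p = 2.82e-05) and with BrefA (-0.99 ± 0.21, adjusted p = 0.000142). DESeq2 called fewer of the 14: 3 for LPS, 5 for tBHQ and 5 for Halofuginone, against 2069, 2050 and 1955 genes in all. Which of the genes named above DESeq2 called is not given here.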

How the data were processed

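Transcript 3′ ends were sequenced after a modified SCRB-Seq preparation, as the labels' protocols state. The authors deposited whole-number counts by gene symbol. The submitters' processing notes name BWA and mm10. Software versions, annotation, strand use and collapsing of PCR copies are not given in the sources used, so counts may not be independent molecules.

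Groups came from the labels. Counts were tested in R 4.3.3 with edgeR 4.0.16: TMM scaling, genes kept by filterByExpr (4963), 96 libraries in 1 model of group plus plate, two-sided quasi-likelihood F tests with robust dispersion, with Benjamini-Hochberg adjustment over all tested genes of each of 18 comparisons at 0.05. The script was tested on simulated data. Standard errors are the absolute log2 fold change divided by the square root of F. CPM are counts per 1000000 of the TMM-scaled total. DESeq2 1.42.0 was an alternative, beside RLE scaling, no plate term, no count filter, each plate alone, same-named wells summed, a replicate block, each well letter left out, 2-group fits, Rn45s and Lars2 left out, and Tunicamycin plate 2 F left out. Where DESeq2 gave no adjusted p, no verdict was drawn.

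The members and lists were chosen with earlier results of these data known. All members are named. Of each other list, up to 3 passing genes per comparison with the largest fold changes and 20 or more mean CPM could be named. Likeness used genes with 20 or more mean CPM and log2 CPM with a pseudocount of 1, and 1 gene it selected is not reported here. Gene overlaps came from GENCODE M21 (mm10), and upstream sequences from RefSeq (GRCm38.p6). Coordinates are 1-based. Python 3.11.15 and matplotlib 3.10.9 made the figures.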

Additional observations from a re-analysis of the deposited data

Results flagged for a closer look

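Of 120 sets of 8 wells (10 genes in 12 groups), 10 had a highest or lowest well whose gap to the next exceeded 0.526 of the range. This is Dixon's critical value for 8, which chance alone exceeds in about 1 in 20 sets of normally distributed values. These sets hold wells of both plates, many with low counts, and need not be normal, so that rate is no measure for the 10. Tunicamycin plate 2 F was the highest well of its group for Btg2 (240.3 CPM, 50 counts) and for Plk2 (76.9 CPM, 16 counts). Torin plate 2 F was the highest for Btg2 (63.9 CPM, 9 counts) and Bcl2l1 (128 CPM, 18 counts), and Torin plate 1 H for Pmaip1 (32.2 CPM, 8 counts). Tunicamycin plate 1 H was the highest for Mdm2 (404 CPM, 96 counts). DMSO plate 1 H was the highest for Plk2 (71.2 CPM, 23 counts), and DMSO plate 2 E the lowest for Ccng1 (17.3 CPM, 4 counts). ZVAD plate 2 H was the highest for Ccng1 (90.1 CPM, 28 counts), and Baflo plate 2 E the highest for Bcl2l1 (74.0 CPM, 18 counts). The cause of these wells was not tested.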

How the results depend on the processing

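Depth limits Pmaip1, Bbc3, Btg2, Bcl2l1 and Ccng1 most, with 179 to 1336 counts in all. Over 19 alternatives, 993 of 1109 values that had passed kept direction and threshold, 115 were lost, 1 reversed, and 21 were gained. The reversed value was Bcl2l1 for Halofuginone against Tunicamycin, -0.68 on plate 2 alone. Among values past the threshold in neither fit, 105 changed sign.

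Counts of members past the threshold moved by over 1.5 times as follows, and the cause was not tested. The counts over all tested genes in these fits are not given beside them. Fits on fewer wells can lose calls for any gene, so these counts are not a result about the members. On plate 1 alone there were 3 for LPS, 3 for tBHQ, 3 for tBHQ against NoStim, 3 for Tunicamycin against BrefA and 0 for ZVAD against Caspase-1. On plate 2 alone there were 1 for Dexa, 3 for pGE2, 0 for tBHQ against NoStim and 0 for ZVAD against Caspase-1. ZVAD against Caspase-1 also gave 0 with no plate term, with no count filter and with same-named wells summed, and tBHQ against NoStim gave 3 with no filter and with summed wells. DESeq2 gave 1 for Caspase-1 and 1 for Tunicamycin, and the fit of 2 groups alone gave 1 for Caspase-1 and 3 for Tunicamycin against BrefA, where Bbc3 was below the count filter and only Mcl1 was lost. Leaving out each well letter in turn gave 3 to 5 for LPS, 1 to 3 for Dexa, 3 to 4 for pGE2, 0 to 1 for Tunicamycin, 3 to 5 for tBHQ against NoStim and 0 to 0 for ZVAD against Caspase-1.

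With plate and letter as a replicate block in the LPS groups, 49 of 49 calls were kept and 1 was gained, Bcl2l11 for Caspase-1 (-0.41, adjusted p = 0.0425), which makes 1 for Caspase-1. Deviations of the same plate and letter between treatments correlated at r = 0.07 on average, and 41.4% of pairs were over 0.1. The mean of -0.02 for other letters of the same plate is not a separate baseline, because the 4 deviations of a group and plate cancel out. The letters were not taken as pairs. Still, 52 of 88 libraries were closest to their own letter, with 4 letters to choose from, so a shared letter effect is possible. That is a hint from the data and not the design.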
